A study of Homo sapiens with 2 samples.

Results

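The mitochondrial ribosomal protein genes were the genes whose symbol begins with MRPL or MRPS, goes on with a number and may end in the letter A, B or C. There were 77 such genes among the 11619 genes listed for NB4 cells, a line of human APL cells with the PML/RARα fusion. All 77 were listed in both libraries and none was at 0. GENCODE release 44 holds 78 protein-coding genes that fit this rule, and the other one, MRPL58, is listed here under its older symbol ICT1. NB4 cells were infected with a lentivirus carrying either an shRNA against the lncRNA CRNDE (sh-CRNDE) or a non-targeting control shRNA (sh-Control), and total RNA was taken at day 3. Both arms were thus infected, both carried the fusion, and each was 1 library of 1 cell line. The study designed more than 1 shRNA against CRNDE, and the labels do not say which was sequenced. The comparison asked which transcripts differed when CRNDE was reduced.

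The mitochondrial ribosome, or mitoribosome, makes the few proteins that mitochondrial DNA encodes, all of them subunits of the respiratory chain and of ATP synthase. Its ribosomal RNAs come from mitochondrial DNA, but every one of its proteins is encoded in the nucleus, made in the cytosol and imported. The large (39S) subunit forms peptide bonds, and the small (28S) subunit holds the mRNA and reads its codons. Some of the proteins have a counterpart in the bacterial ribosome, while others are specific to mitochondria. A mitoribosome needs these proteins in fixed proportions, and proteins made in excess are degraded, so transcript levels do not give the number of ribosomes. AML cells are known to be sensitive to inhibitors of mitochondrial translation.

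The values are FPKM, which divide the fragments of a gene by its transcript length and by the library's mapped fragments, so they can be compared between genes. The change of a gene is the difference of log2(FPKM + 1) between the knockdown (sh-CRNDE) and the control (sh-Control) library, and a gene was counted as higher or lower when this change was past 1.5-fold, or 0.585 on the log2 scale, the threshold used in the study. With 1 library per group, no difference below has a replicate check, no p-value is given, and "higher" or "lower" compares 2 libraries and not 2 conditions. How deeply either library was sequenced is unknown, because FPKM retain no counts of reads. The targeted gene CRNDE was at 5.92 FPKM in the control and 1.85 FPKM in the knockdown library, a change of -1.28. Of 7 promyelocyte markers, 6 were listed, with summed levels of 1426 FPKM in the control and 846 FPKM in the knockdown library. MPO, at 1135 and 738 FPKM, made up most of these sums. PRTN3, AZU1, CTSG and MPO, 4 of the 6, were lower past 1.5-fold, against 8.83% of all listed genes. CD33 (-0.20) was within the threshold, as was LYZ, which went the other way at 21.9 and 32.1 FPKM (0.53). Of 11 markers of other cell types, 3 were listed, with summed levels of 6.38 and 6.34 FPKM, and EPCAM, at 4.82 and 4.49 FPKM, made up most of this. The part of the promyelocyte markers in the results below was not tested.

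Promoter sequences are shown first, because the members share sequence features near their starts that the symbols did not use. For 68 of the 77 members, the RefSeq table for GRCh38.p14 gave the 250 bases before and the 50 bases after the start of transcription. Each window was searched on both strands for the core letters of 4 motifs: CCGGAAG for ETS factors such as GABPA, AAGATGGC for YY1, GCATGCGC for NRF1, and the E-box CACGTG. GABPA, YY1 and NRF1 are nuclear factors known for regulating genes of mitochondrial proteins. The end of the ETS letters and the start of the YY1 letters share the bases AAG, but no ETS match overlapped a YY1 match in the members. The following windows run 5′ to 3′ from 70 bases before to 30 bases after the start, in lower case with motif letters in capitals.

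Of the 7 members that were higher in sh-CRNDE, the 6 with ETS or YY1 letters are shown. In MRPL18, MRPL33 and MRPL40 the capitals mark the ETS letters, and in MRPL18 they are on the opposite strand. In MRPL42, MRPL46 and MRPL50 the capitals mark the YY1 letters, and the last base of the match in MRPL50 lies just past the end of the printed window.
MRPL50 (chr9:101398589-101398688, minus strand): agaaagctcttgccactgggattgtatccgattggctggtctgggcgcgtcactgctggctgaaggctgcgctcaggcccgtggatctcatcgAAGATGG
MRPL40 (chr22:19432475-19432574, plus strand): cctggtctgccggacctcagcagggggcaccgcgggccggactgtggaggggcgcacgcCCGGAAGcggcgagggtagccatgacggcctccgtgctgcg
MRPL33 (chr2:27771649-27771748, plus strand): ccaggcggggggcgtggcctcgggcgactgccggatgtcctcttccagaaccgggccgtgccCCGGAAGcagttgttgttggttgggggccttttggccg
MRPL42 (chr12:93467444-93467543, plus strand): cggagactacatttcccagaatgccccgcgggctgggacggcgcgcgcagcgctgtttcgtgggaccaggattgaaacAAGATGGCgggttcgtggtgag
MRPL46 (chr15:88467359-88467458, minus strand): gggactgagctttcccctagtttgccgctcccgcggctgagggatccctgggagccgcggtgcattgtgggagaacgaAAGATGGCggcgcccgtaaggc
MRPL18 (chr6:159790397-159790496, plus strand): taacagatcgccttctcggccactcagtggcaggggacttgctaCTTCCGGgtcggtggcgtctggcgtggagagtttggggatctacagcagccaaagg

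Of the 8 members that were lower, the 4 with ETS or YY1 letters are shown, together with MRPS11, which has neither and shares its upstream region with MRPL46. In MRPL36 the first capitals mark the E-box and the second the YY1 letters on the opposite strand. In MRPS24 and MRPL45 the capitals mark the YY1 letters, and in MRPL54 the ETS letters on the opposite strand.
MRPL36 (chr5:1799808-1799907, minus strand): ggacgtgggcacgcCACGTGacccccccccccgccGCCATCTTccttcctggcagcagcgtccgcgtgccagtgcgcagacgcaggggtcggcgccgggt
MRPS24 (chr7:43869488-43869587, minus strand): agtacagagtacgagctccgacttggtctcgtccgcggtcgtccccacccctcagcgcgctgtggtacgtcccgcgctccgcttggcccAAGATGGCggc
MRPL45 (chr17:38297098-38297197, plus strand): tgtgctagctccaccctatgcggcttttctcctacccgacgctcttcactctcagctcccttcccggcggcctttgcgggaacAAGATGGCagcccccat
MRPL54 (chr19:3762612-3762711, plus strand): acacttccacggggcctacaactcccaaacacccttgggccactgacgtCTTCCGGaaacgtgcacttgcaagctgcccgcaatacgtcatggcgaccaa
MRPS11 (chr15:88467638-88467737, plus strand): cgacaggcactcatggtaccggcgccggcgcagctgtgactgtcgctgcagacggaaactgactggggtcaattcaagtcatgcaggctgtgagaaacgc

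The YY1 letters in MRPL42, MRPL45, MRPL46, MRPL50 and MRPS24 sit just after the start, on the strand of the gene, in members that were higher and in members that were lower. ETS letters were present in 29 of the 68 member windows, or 42.6%, against 22.3% of the 7940 listed genes with a window, 10.8% of all 27305 windows in the table and 35.5% of 62 cytosolic ribosomal protein genes. YY1 letters were present in 21 member windows, or 30.9%, against 6.66% of the listed genes, 3.14% of all windows and 11.3% of the cytosolic ribosomal protein genes. Either of the 2 was present in 42 member windows, or 61.8%, against 27.4% of the listed genes, and both in 8. NRF1 letters were found in 6 member windows, or 8.82%, against 6.46% of the listed genes, and the E-box in 5, or 7.35%, against 10.98%. Matches are runs of letters and not sites shown to be bound.

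The positions of the matches were read in the members only. The 22 YY1 matches had a median first base at position 12 after the start, with a range from -222 to 36. The 38 ETS matches had theirs 24 bases before the start (position -24), with a range from -222 to 8. Of the 29 members with ETS letters, 3 were higher and 1 was lower past 1.5-fold, and their median change was 0.02. Of the 39 without, 4 were higher and 7 were lower, with a median change of 0.10. Of the 21 members with YY1 letters, 3 were higher and 3 were lower, with a median change of 0.08. Of the 47 without, 4 were higher and 5 were lower, with a median change of 0.02. Of the 5 members with an E-box, 2 were lower, MRPL36 among them, and none was higher, while of the 63 without, 7 were higher and 6 lower. Among all listed genes, 8.38% were higher and 8.83% were lower, and the differences between members with and without a motif were not tested.

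**Figure D1:**
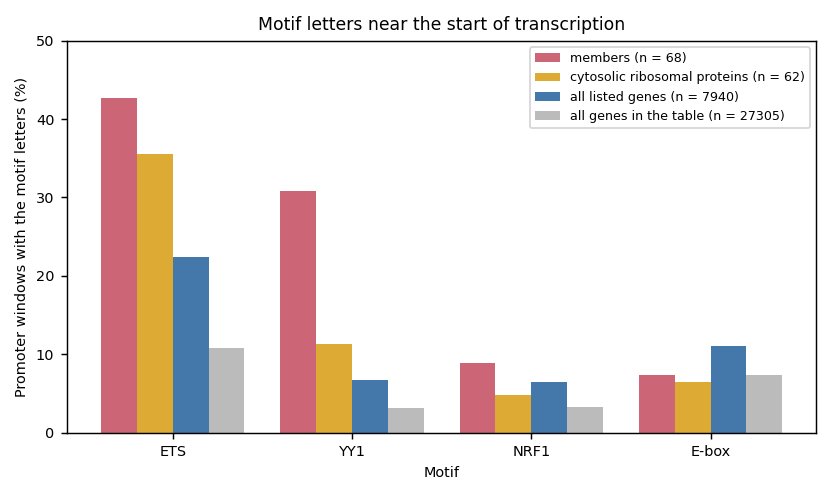
Share of promoter windows (%) that hold the letters of each motif on either strand, for the members, the cytosolic ribosomal protein genes, all listed genes and all genes in the RefSeq table. The members had the highest share for ETS (42.6%) and YY1 (30.9%), while the E-box was in 7.35% of them.

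The mitoribosomal genes as a group stayed at nearly the same level. Their summed level was 1287 FPKM in the control and 1321 FPKM in the knockdown library, and their median change was 0.04, against -0.01 for all listed genes. The quartiles of the change were -0.18 and 0.21, and 36 members lay within 0.2 of no change. By sign alone, 43 members were above 0 and 34 below, but 15 members changed sign when the median change of genes in the same bin of GC content was subtracted. Past 1.5-fold, 7 members were higher and 8 were lower, and 62 were within the threshold. Of all listed genes, 8.38% were higher and 8.83% were lower past 1.5-fold, and among the 9731 genes with a mean FPKM within the range of the members these shares were 8.07% and 8.8%. In both directions together, 19.5% of the members and 17.2% of all listed genes were past the threshold, so the members were near the background. Past 2-fold, 3 members were higher and 5 were lower, against 3.43% and 3.23% of all listed genes.

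Levels differed far more between members than between libraries. In sh-Control they ran from 0.0447 FPKM for MRPL50 to 79.98 FPKM for MRPL4, with a median of 12.6 FPKM. In sh-CRNDE they ran from 1.06 FPKM for MRPL57 to 152 FPKM for MRPS35, with a median of 10.6 FPKM. The 10 members with the highest level in sh-Control held 38.2% of the summed FPKM there, and 7 of these 10 were also among the highest 10 in sh-CRNDE. The log2(FPKM + 1) levels of the 2 libraries correlated across the members with r = 0.80 (n = 77 genes), against 0.92 across all listed genes. The 2 values of r cover unlike ranges of level, since all listed genes ran from 0 to 27614 FPKM in sh-CRNDE. They therefore do not show whether the members were less stable than other genes. Both describe genes within a pair of libraries, and genes are not independent replicates.

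The members with the highest mean level were MRPS35, MRPL12, MRPL4, MRPL51 and MRPS26. MRPL12, which forms the flexible stalk that recruits translation factors, was at 77.1 FPKM in the control and 68.4 FPKM in the knockdown library, a change of -0.17. MRPL51, a mitochondria-specific protein of the large subunit, was at 46.6 and 62.4 FPKM, a change of 0.41. MRPS26, a mitochondria-specific protein of the small subunit, was at 48.9 and 43.3 FPKM, a change of -0.17. MRPS35 and MRPL4 were also past the threshold. The members with the lowest mean level were MRPL57, MRPS33, MRPL34, MRPS14 and MRPS11. MRPL57 was at 0.542 FPKM in the control and 1.06 FPKM in the knockdown library, a change of 0.42, MRPS33 at 1.76 and 1.94 FPKM, a change of 0.09, and MRPS14 at 2.33 and 3.09 FPKM, a change of 0.30.

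**Figure D2:**
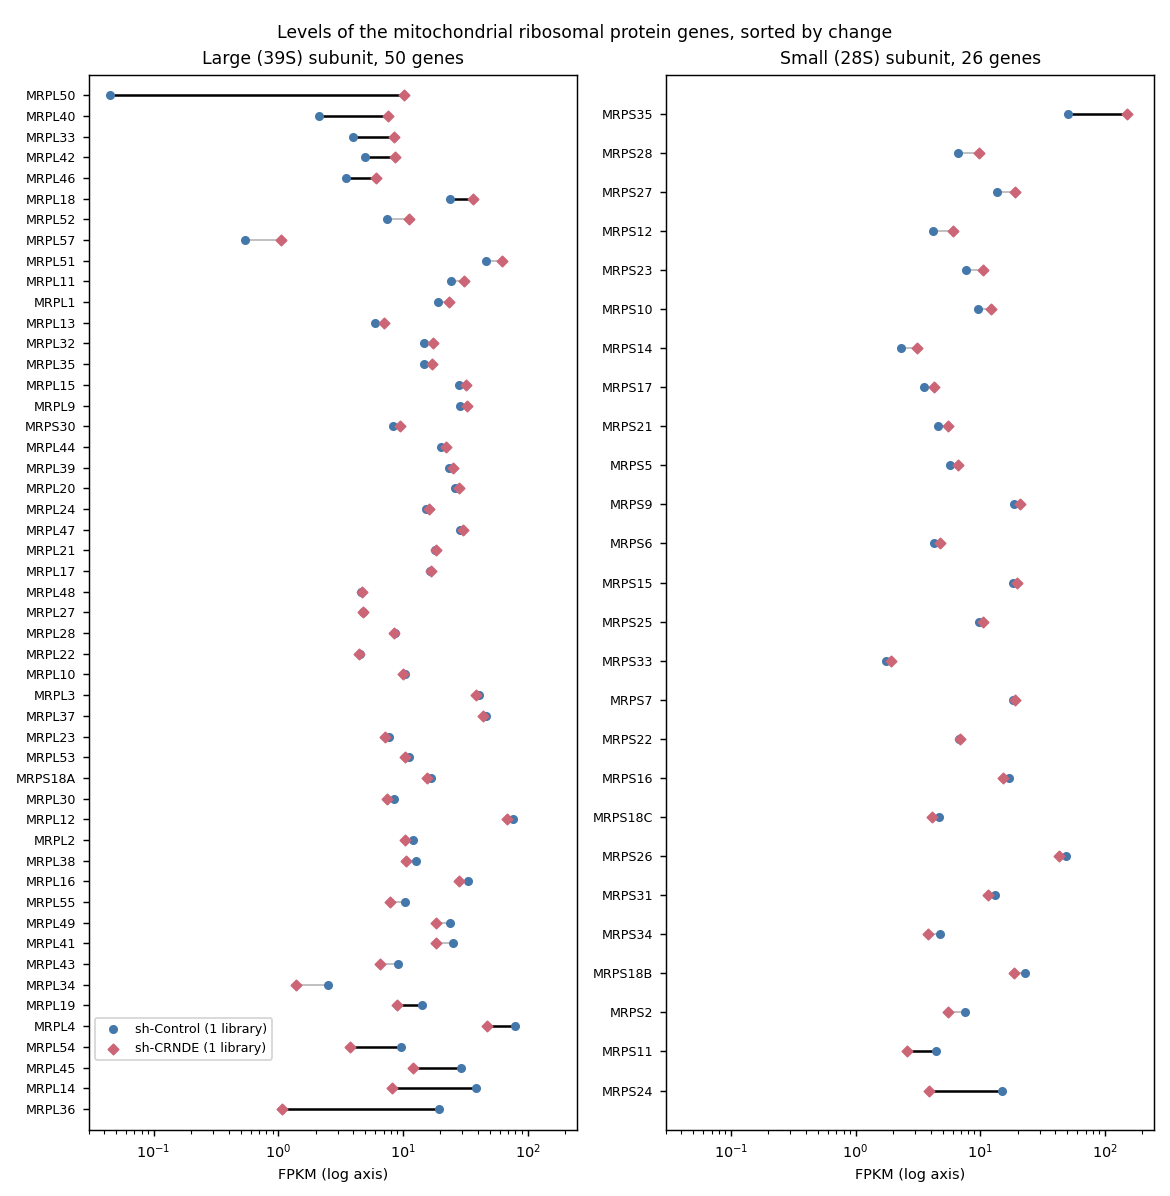
FPKM (log axis) of each mitoribosomal protein gene in sh-Control (circles) and in sh-CRNDE (diamonds), 1 library each, for the 39S and the 28S subunit, sorted by change. Black lines join the values of the 15 members past 1.5-fold, from MRPL50 (0.0447 to 10.2 FPKM) to MRPL36 (19.6 to 1.08 FPKM), and grey lines the others. MRPS36 is in neither subunit and is not drawn.

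Of the 7 members that were higher in sh-CRNDE, 6 were of the large subunit, which holds 64.9% of all members. MRPL50 (ENSG00000136897, chr9:101387633-101398618, minus strand, 2 exons), a mitochondria-specific protein, was at 0.0447 FPKM in the control and 10.2 FPKM in the knockdown library, a change of 3.42. Its control value was the lowest of any member in either library, so the size of this change depends on the pseudocount. Every listed gene was above 0.5 FPKM in at least 1 library, which MRPL50 met only in the knockdown library. Had it been low in both, it would not have been among the members. MRPL40 (ENSG00000185608, chr22:19432545-19436075, plus strand, 4 exons), a protein of the central protuberance, was at 2.10 FPKM in the control and 7.60 FPKM in the knockdown library, a change of 1.47. MRPL33 (ENSG00000243147, chr2:27771717-27988087, plus strand, 4 exons), which has a bacterial counterpart, was at 3.94 and 8.51 FPKM, a change of 0.95. These 3 members were all below 4 FPKM in sh-Control.

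MRPL42 (chr12:93467514-93516214), a mitochondria-specific protein, was at 4.93 FPKM in the control and 8.68 FPKM in the knockdown library, a change of 0.71. MRPL46 (chr15:88459477-88467390), of the central protuberance, was at 3.47 and 6.12 FPKM, a change of 0.67, and 73.4% of its exon bases are shared with another annotated gene. MRPL18 (chr6:159789812-159798436), also of the central protuberance and with a bacterial counterpart, was at 23.9 and 36.8 FPKM, a change of 0.60, the smallest among the 7. The only higher member of the small subunit was MRPS35 (ENSG00000061794, chr12:27710822-27756295, plus strand, 8 exons), which is specific to mitochondria. It was at 50.7 FPKM in the control and 152 FPKM in the knockdown library, a change of 1.56. MRPS35 made up 3.94% of the summed FPKM of the members in sh-Control and 11.5% in sh-CRNDE, and without it the sum was 1236 FPKM in the control and 1169 FPKM in the knockdown library. The rise of the summed level from 1287 to 1321 FPKM thus rested on this gene.

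Of the 8 members that were lower, 6 were of the large subunit. MRPL36 (ENSG00000171421, chr5:1798385-1801366, minus strand, 2 exons), the counterpart of a small bacterial protein, was at 19.6 FPKM in the control and 1.08 FPKM in the knockdown library, a change of -3.31, the lowest of the members. MRPL14 (ENSG00000180992, chr6:44113451-44127452, minus strand, 3 exons), which lies at the interface to the small subunit, was at 38.8 and 8.23 FPKM, a change of -2.11. MRPL45 (ENSG00000278845, chr17:38297023-38323217, plus strand, 8 exons), which anchors the ribosome near the inner membrane at the tunnel exit, was at 29.4 and 11.96 FPKM, a change of -1.23. MRPL54 (chr19:3762682-3768575), a mitochondria-specific protein, was at 9.74 and 3.74 FPKM, a change of -1.18.

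MRPL4 (chr19:10251901-10260055), whose bacterial counterpart lines the exit tunnel, had the highest level of all members in sh-Control, 79.98 FPKM, and was at 47.5 FPKM after knockdown, a change of -0.74. MRPL19 (chr2:75646783-75690851), which has a bacterial counterpart, was at 14.2 and 8.96 FPKM, a change of -0.61. Both lower members of the small subunit have bacterial counterparts. MRPS24 (ENSG00000062582, chr7:43866558-43869893, minus strand, 4 exons) was at 14.9 FPKM in the control and 3.89 FPKM in the knockdown library, a change of -1.70. Of its exon bases, 90.9% are shared with the readthrough locus URGCP-MRPS24, so its value is uncertain. MRPS11 (chr15:88467453-88480776) was at 4.43 and 2.61 FPKM, a change of -0.59, just past the threshold. MRPL34 lay just within it at 2.52 and 1.38 FPKM, a change of -0.56, and on the other side MRPL52 did so at 7.501 and 11.2 FPKM, a change of 0.52.

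The 50 members of the 39S subunit, which include MRPS30 and MRPS18A, were 64.9% of all members. They held 12 of the 15 members past the threshold, 6 in each direction. Their median change was 0.02, and their summed level was 948 FPKM in the control and 887 FPKM in the knockdown library. Past the threshold in either direction were 24% of the 39S members, 11.5% of the 28S members and 17.2% of all listed genes. This difference between the subunits was not tested. Of the 26 members of the 28S subunit, 1 was higher and 2 were lower, and 17 were above 0 against 9 below. Their median change was 0.10, and their summed level was 325 FPKM in the control and 422 FPKM in the knockdown library, of which MRPS35 alone gave the 50.7 and 152 FPKM above. MRPS36, which despite its symbol is a part of the alpha-ketoglutarate dehydrogenase complex, was at 13.0 and 11.4 FPKM.

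Among the 46 members with a bacterial counterpart, 2 were higher and 6 were lower, with a median change of 0.04. Among the 30 mitochondria-specific members, 5 were higher and 2 were lower, with a median change of 0.06. Of all listed genes, 8.38% were higher and 8.83% were lower. In both directions together, 17.4% of the first class, 23.3% of the second and 17.2% of all listed genes were past the threshold. The medians of these classes lay close together while the directions of their extreme members differed, and this difference was not tested.

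Within the large subunit, members of a structural site did not all go one way. The central protuberance is where the large subunit contacts the head of the small one. Of the 6 of its proteins read here, 3 were higher (MRPL18, MRPL40 and MRPL46) and none was lower. Of all listed genes, 8.38% were higher and 8.83% were lower, and the difference was not tested. MRPL18 fell short with quantile normalization (0.57), and 73.4% of the exon bases of MRPL46 are shared with another annotated gene. The summed level of the 6 was 51.5 FPKM in the control and 70.7 FPKM in the knockdown library. The others of the 6 were within the threshold, with changes of 0.02 for MRPL27, 0.02 for MRPL48 and -0.22 for MRPL38. At the tunnel exit, where the growing chain meets the inner membrane, MRPL45 was lower while MRPL22 (-0.04), MRPL23 (-0.10), MRPL24 (0.08), MRPL44 (0.14) and MRPL47 (0.07) were within 0.2 of no change. Of the stalk proteins, MRPL10 had a change of -0.05, MRPL11 of 0.34 and MRPL12 of -0.17.

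At the core of the small subunit, only MRPS12 and MRPS7 were read, and both were within the threshold. MRPS12, of the decoding centre, was at 4.20 FPKM in the control and 6.02 FPKM in the knockdown library, a change of 0.43. With the median change of its GC bin subtracted, MRPS12 was past the threshold at 0.64. MRPS7, which organises the head, was at 18.5 and 19.2 FPKM, a change of 0.05. The 3 paralogs related to bacterial S18, which take different places in the mitoribosome, were all slightly below 0, except that MRPS18A was at 0.04 with the median change of its GC bin subtracted. MRPS18A was at 16.9 and 15.6 FPKM (-0.11), MRPS18B at 23.0 and 18.7 FPKM (-0.28), and MRPS18C at 4.66 and 4.07 FPKM (-0.16).

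Of the members, 25 start within 1000 bases of a protein-coding gene on the other strand, in 24 pairs. In 15 pairs both genes had a change of the same sign and in 9 of opposite sign, and in 3 pairs both genes were past 1.5-fold. The same counts were not taken for pairs of other genes, so they have no background here. MRPL50 starts 233 bases from ZNF189, a zinc finger gene, which was at 1.08 FPKM in the control and 4.23 FPKM in the knockdown library, a change of 1.33. MRPL54 starts 990 bases from APBA3, which was at 1.61 and 0.725 FPKM, a change of -0.60. Both genes of each of these pairs went the same way, whereas MRPL46 and MRPS11, which start 320 bases apart, had changes of opposite sign, 0.67 and -0.59. The windows of this last pair are printed above.

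Other members past the threshold had a neighbour near 0. MRPL14 starts 102 bases from TMEM63B, whose change was -0.13, MRPL40 starts 812 bases from HIRA, with 0.09, and MRPL18 starts 865 bases from TCP1, with 0.03. The library kit does not mark strand, so reads from overlapping genes on opposite strands cannot be told apart.

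**Figure D3:**
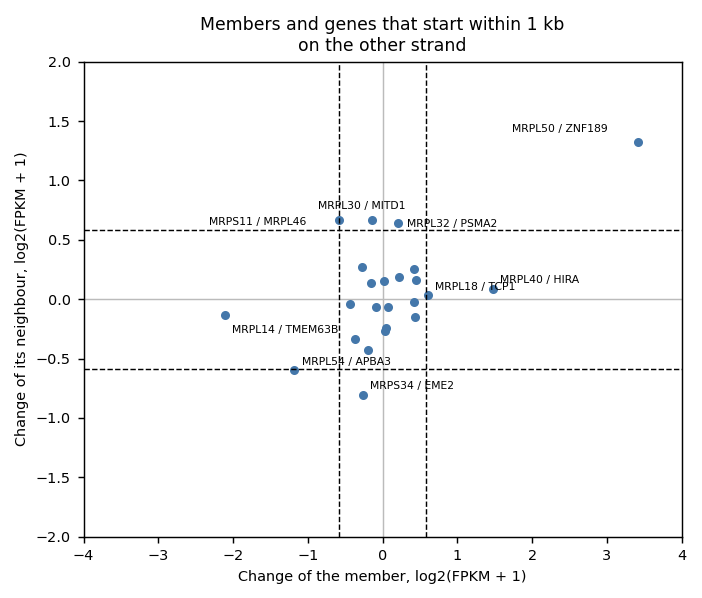
Change, log2(FPKM + 1) in sh-CRNDE less sh-Control, of each member (x axis) and of the protein-coding gene that starts within 1000 bases on the other strand (y axis), 24 pairs, with the 1.5-fold thresholds dashed. MRPL50 and ZNF189 lie farthest out (3.42 and 1.33), MRPS11 and MRPL46 lie in opposite directions, and most pairs lie near the centre.

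The changes of the members went with the GC content of their transcripts. The 7 higher members had a median GC content of 41.3% and the 8 lower members of 52.8%, against 48.0% for all members. Of the 39 members at or above this median, 14 were above 0 and 25 below, with a median change of -0.11. Of the 38 members under it, 29 were above 0 and 9 below, with a median change of 0.16. Across members, change and GC content correlated with r = -0.37 (Spearman's rho = -0.46, n = 77 genes), and across the members within 1.5-fold with r = -0.45. All listed genes showed the same direction, with r = -0.24, and over 10 bins of GC content with like numbers of genes, each at 1 FPKM or more in both libraries, the median change went from 0.19 in the lowest to -0.33 in the highest. The members thus shared this direction with the listed genes as a whole, and no slope was fitted. With the median change of each bin subtracted, MRPL4 (-0.41), MRPL42 (0.54) and MRPS11 (-0.58) were no longer past the threshold, while MRPL52 (0.60) and MRPS12 (0.64) were.

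Some members are hard to count by sequence. For 36 members, GENCODE names at least 1 pseudogene after the gene, and for 10 at least 50% of the exon bases are shared with another annotated gene, while 36 members have neither. Among the members past the threshold, MRPL42 has 5 named pseudogenes, MRPL50 has 3, MRPS35 and MRPL45 have 2 each, and MRPL36, MRPL40 and MRPS11 have 1 each. Reads can be split between such copies, so these values are uncertain.

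Proteins that work with the members were read from fixed lists. The mitoribosomal proteins that carry other symbols, together with the insertase OXA1L, counted 7, and none was past the threshold. DAP3, a GTP-binding protein of the small subunit, was at 18.7 FPKM in the control and 18.8 FPKM in the knockdown library, and ICT1, a peptidyl-tRNA hydrolase built into the large subunit, was at 14.6 and 21.9 FPKM, a change of 0.56. For these 7 the median was 0.00. None of 11 translation factors was past the threshold either, although 9 were above 0, with a median of 0.22. TUFM, the elongation factor that delivers aminoacyl-tRNA, was the most abundant of them at 131 and 95.9 FPKM, a change of -0.44.

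Of 29 assembly factors and RNA-modifying enzymes, 3 were higher and 3 were lower, with a median change of -0.14. NGRN, which is needed for the large-subunit rRNA, was at 3.53 FPKM in the control and 8.49 FPKM in the knockdown library, a change of 1.07. RNMTL1, an rRNA methyltransferase also named MRM3, was at 4.30 and 9.43 FPKM (0.98), and METTL15, a methyltransferase of the small-subunit rRNA, was at 0.534 and 1.71 FPKM (0.82). DDX28, a helicase of large-subunit assembly, was at 7.32 FPKM in the control library but 0 is listed for it after knockdown. RBFA, which matures the small subunit, was at 4.45 and 2.05 FPKM (-0.84), and MPV17L2, which takes part in assembly, at 6.59 and 4.04 FPKM (-0.59). Of the 6 listed genes of mitochondrial transcription and RNA stability, only TFAM, which packages mitochondrial DNA and starts its transcription, was past the threshold, at 12.4 FPKM in the control and 23.6 FPKM in the knockdown library, a change of 0.88. For the mitochondrial rRNAs themselves, the control library lists both at 0, whereas the knockdown library has MT-RNR2 at 27614 FPKM and MT-RNR1 at 59.3 FPKM. No fold is given against a value of 0, and the part of this difference between the libraries in the members' FPKM was not tested.

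Other large protein families were read the same way. The 78 cytosolic ribosomal protein genes had 2 higher and 2 lower, or 5.13%, with an SD of the change of 0.38 and a median of -0.09. The 76 nuclear genes of the respiratory chain and ATP synthase had 6 higher and 7 lower, or 17.1%, with an SD of 0.94, to which 1 gene with a change of -6.73 contributed, and their median was 0.03. The members had 19.5% past the threshold and an SD of 0.77. The quartiles of the change were -0.18 and 0.21 for the members, -0.19 and 0.18 for the respiratory chain genes and -0.20 and 0.10 for the cytosolic ribosomal protein genes. The level differed as well, since the median of the mean FPKM was 10.9 for the members, 24.4 for the respiratory chain genes and 124 for the cytosolic ribosomal protein genes. These differences between families were not tested.

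**Figure D4:**
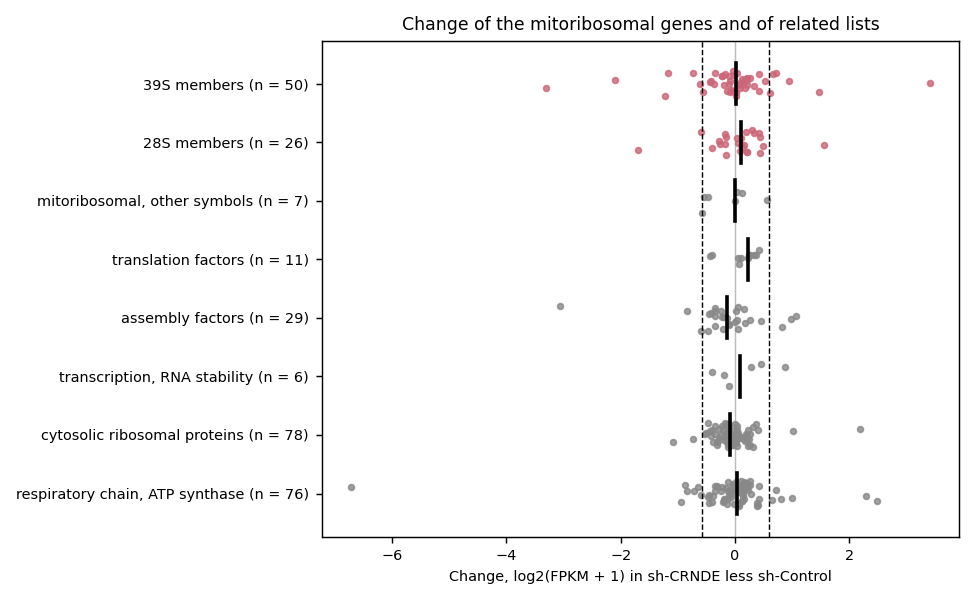
Change, log2(FPKM + 1) in sh-CRNDE less sh-Control, of each gene (points) in the members of both subunits (red) and in related lists (grey), with the median of each list as a black bar and the 1.5-fold thresholds dashed. The medians lie between -0.14 (assembly factors) and 0.22 (translation factors), while single genes lie far out in most lists.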

How the data were processed

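RNA-seq was done on 1 sh-CRNDE and 1 sh-Control library of NB4 cells, made with a TruSeq RNA kit and run on a MiSeq. Per the submitters' processing notes, fastp 0.20.0, HISAT2 2.0.4, StringTie 1.2.3 and GRCh38 were used. The authors deposited FPKM values per gene, and every listed gene was above 0.5 FPKM in at least 1 library. No read counts were used here, so the depth is unknown.

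From the deposited FPKM, the change was taken on log2(FPKM + 1), a scale that understates the change of low genes. No test was run with 1 library per group. Members, gene lists and thresholds were chosen with earlier results of these data known. The genes named are CRNDE, the members past 1.5-fold, the 5 highest and 5 lowest by mean FPKM, fixed structural sites and paralogs, and list genes past 1.5-fold. MRPL34 and MRPL52 (nearest the threshold), neighbouring genes, DAP3, ICT1, TUFM, EPCAM, CD33, LYZ and the mitochondrial rRNA genes were chosen after their values were seen. Coordinates, exons, GC content and pseudogenes were taken from GENCODE release 44 (GRCh38) by Ensembl identifier, which 11508 of the 11619 genes had in common. RefSeq windows of 67 of 68 members begin at the GENCODE start, and that of MRPL14 lies 144 bases away. Alternatives were other pseudocounts, scalings, filters and thresholds. The steps were tested on simulated data and run in Python 3.11.15 with numpy 2.4.6, pandas 2.3.3 and matplotlib 3.10.9.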

Additional observations from a re-analysis of the deposited data

How the results depend on the processing

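The 6 alternatives were pseudocounts of 0.1 and 0.01, centring, quantile normalization, TPM and subtraction of the median within bins of GC content. None of the 15 members past 1.5-fold changed sign under these, but for most of them no other outcome was possible. Another pseudocount cannot turn the sign of a change. Centring moved each change by 0.0064 and GC subtraction by up to 0.33, less than the threshold of 0.585. GC subtraction changed the sign of 15 members within the threshold, among them MRPL12 (0.16), MRPS26 (0.16), MRPL38 (0.11), MRPL23 (0.24) and MRPL47 (-0.11), and quantile normalization that of MRPL28 (0.0003). Of the 15 members past 1.5-fold, 11 were past it under all 6. MRPS11 fell short with centring (-0.58), quantile normalization (-0.55) and GC subtraction (-0.58), MRPL18 with quantile normalization (0.57), and MRPL4 (-0.41) and MRPL42 (0.54) with GC subtraction. MRPL34 and MRPL57 came past it at a pseudocount of 0.1 (-0.82 and 0.85), and MRPL52 (0.60) and MRPS12 (0.64) with GC subtraction. With at least 5 FPKM required in both libraries, 55 members were left, of which 2 were higher and 4 lower. The members past 1.5-fold that this filter took out were MRPL50, MRPL40, MRPL33, MRPL42, MRPL46, MRPL36, MRPL54, MRPS24 and MRPS11. Each of them was below 5 FPKM in at least 1 library. The share over all listed genes was not taken at this filter. The median of the 39S members turned from 0.02 to -0.03 with it. At 2-fold, 3 were higher and 5 lower. The following alternatives were chosen after seeing the data. Of the 36 members with no named pseudogene and under 50% shared exon bases, 2 were higher and 4 lower. The share over all listed genes was not taken with these limits. Without MRPS35, the log2 ratio of the summed FPKM turned from 0.04 to -0.0807. No paired analysis was possible because each group had 1 library. The unknown depth and the single library per group limit every value.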
